A study of Bos taurus with 7 samples.

Results

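The 8 bovine miRNAs described here took the largest mean share of the miRNA signal in cow plasma: bta-miR-1777a, bta-miR-1777b, bta-miR-2305, bta-miR-2328-3p, bta-miR-1584-5p, bta-miR-2412, bta-miR-2888 and bta-miR-2881, where bta stands for Bos taurus. They were chosen from the 744 bovine miRNAs on the array by the mean percent of the summed signal per miRNA over 7 arrays, so their shares and ranks are given as a description and were not tested. The arrays carried plasma RNA of 7 Japanese-Black cows after controlled estrus and artificial insemination, bled on day 21 with the day of insemination as day 0. Of these, 4 were labelled pregnant (numbered 1, 2, 3 and 4) and 3 non-pregnant (numbered 1, 3 and 4), and the stated aim was to compare circulating miRNAs between both states. Each cow gave 1 array, hybridised with 50 ng of RNA labelled with the dye Cy3, and the labels give no age and no method of pregnancy diagnosis.

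miRNAs are short RNAs that guide the silencing complex to messenger RNAs by base pairing. Those found in plasma travel in vesicles or bound to proteins, and blood cells, platelets, endothelium and liver are known sources. On an array of this type each miRNA is captured by short DNA probes complementary to it, and probes rich in G and C can be shorter because each such base pair binds more tightly. The signals of different probes are not on a common scale, so a share of signal is not a share of RNA molecules.

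Each of the 8 miRNAs had 2 probes of 10 spots, and the longer probe of a pair held all bases of the shorter one and 1 more. The sequences are shown because what the 8 miRNAs have in common besides their brightness is the letter C. Each line gives the longer probe, 5′ to 3′ as the scanner files write it, in lower case with every run of 4 or more C in capitals.
miR-1777a: cccgCCCCCCa
miR-1777b: CCCCgCCCCCC
miR-2305: CCCCCtCCCCgc
miR-2328-3p: tggCCCCCtccc
miR-1584-5p: tgCCCCCagccc
miR-2412: ccctctCCCCacc
miR-2888: ccaaCCCCCCCa
miR-2881: cacccgCCCCC

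The array design placed these probes on bovine assembly UMD 3.1 (bosTau6), with no strand column, and a database of another assembly, RefSeq on ARS-UCD 2.0, listed 9 loci for the 8 miRNAs. The miR-1777a probe was placed at chr6:107199025-107199034, and its RefSeq locus overlapped no other gene. For miR-1777b the place was chr7:63524577-63524586, and the RefSeq locus overlapped PDGFRB, the platelet-derived growth factor receptor beta. miR-2305 was placed at chr13:39836885-39836895, and its locus overlapped RIN2, which acts on Rab5 GTPases. miR-2328-3p had places at chr18:38310642-38310653 and chr18:39351816-39351827, and its locus overlapped the zinc finger gene ZNF821. miR-1584-5p had places at chr3:10736944-10736955 and chr3:9881776-9881787, and its locus overlapped TAGLN2, which encodes the actin-binding protein transgelin-2, and a lncRNA. miR-2412 was placed at chr3:18845860-18845871, with no overlapping gene. miR-2888 was placed at chr21:36134560-36134571 and chr22:58391470-58391481, and of its RefSeq loci the one on chromosome 22 overlapped GRIP2, a scaffold protein of glutamate receptors. miR-2881 was placed at chr7:13754330-13754339, with no overlapping gene. Whether a locus lies in an exon or an intron was not analysed here. For 5 of them the listed span was 1 base shorter than the probe.

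The probes of the 8 miRNAs shared stretches with each other. The shorter miR-1777a probe of 10 bases, cccgCCCCCC, lies whole within the longer miR-1777b probe. Both miR-1777 probes shared a run of 9 bases with the longer miR-2881 probe, and miR-2305 shared 9 bases with miR-2328-3p. miR-2412 shared at most 6 bases with any of the others.

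Most of the miRNA signal came from the 8 miRNAs on every array. Their joint share was 90.2%, 88.6%, 92.5% and 87.1% on pregnant 1 to 4, and 90.8%, 92.4% and 91.7% on non-pregnant 1, 3 and 4. The groups overlapped, with means of 89.6% ± 2.33 (SD, n = 4) for pregnant and 91.7% ± 0.811 (SD, n = 3) for non-pregnant cows, a difference of -2.07 percentage points that became -1.24 without pregnant 4. The total signal itself varied 8.37-fold between arrays, from 12079.5 on non-pregnant 1 to 101065 on pregnant 3. The signal of the 8 miRNAs varied 8.52-fold and that of all other miRNAs 6.81-fold, so the ratio of the former to the latter lay between 6.76 (pregnant 4) and 12.4 (pregnant 3). Of the other 736 miRNAs, 37 to 93 were detected per array. With normexp background correction, which adds an offset of 50 to the spots, the joint share fell to between 16.2% and 57.9% and the group difference became 5.09.

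miR-1777a had the highest mean share, 21.7% ± 4.43 (SD, n = 7). Its share was 24.1%, 19.7%, 16.6% and 21.7% on pregnant 1 to 4, and 29.6%, 17.5% and 22.9% on non-pregnant 1, 3 and 4. It was highest on the dimmest array, non-pregnant 1, and lowest on the brightest, pregnant 3. miR-1777b held 20.6%, 17.5%, 21.4% and 20.6% on pregnant 1 to 4, and 21.6%, 21.4% and 18.4% on non-pregnant 1, 3 and 4. Its mean was 20.2% ± 1.64 (SD, n = 7), with the smallest relative spread of the 8, a coefficient of variation of 8.11%. miR-2305 held 16.4%, 20.9%, 20.3% and 17.1% on pregnant 1 to 4, and 15.0%, 21.0% and 20.3% on non-pregnant 1, 3 and 4. These 3 miRNAs took ranks 1 to 3 on every array, in changing order. miR-1777a ranked first on pregnant 1 and 4 and on non-pregnant 1 and 4, miR-1777b on pregnant 3 and non-pregnant 3, and miR-2305 on pregnant 2.

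miR-2328-3p ranked 4 on all 7 arrays. Its share was 8.29%, 10.6%, 10.8% and 9.21% on pregnant 1 to 4, and 6.52%, 10.7% and 10.7% on non-pregnant 1, 3 and 4. The remaining 4 miRNAs divided ranks 5 to 8 among themselves, and their shares overlapped across arrays. miR-1584-5p held 6.27%, 6.06%, 6.90% and 4.53% on pregnant 1 to 4, and 4.56%, 6.70% and 5.22% on non-pregnant 1, 3 and 4. miR-2412 held 4.62%, 5.60%, 6.16% and 4.64% on pregnant 1 to 4, and 3.66%, 5.66% and 5.79% on non-pregnant 1, 3 and 4. Like miR-2328-3p, miR-2412 had its lowest share on non-pregnant 1. The share of miR-2888 was 4.98%, 4.58%, 4.28% and 5.16% on pregnant 1 to 4, and 5.22%, 4.11% and 5.03% on non-pregnant 1, 3 and 4. The share of miR-2881 was 4.94%, 3.66%, 6.05% and 4.15% on pregnant 1 to 4, and 4.55%, 5.42% and 3.36% on non-pregnant 1, 3 and 4. miR-2888 was at its highest on non-pregnant 1, as miR-1777a was, while miR-2881 was at its highest on pregnant 3.

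**Figure D1:**
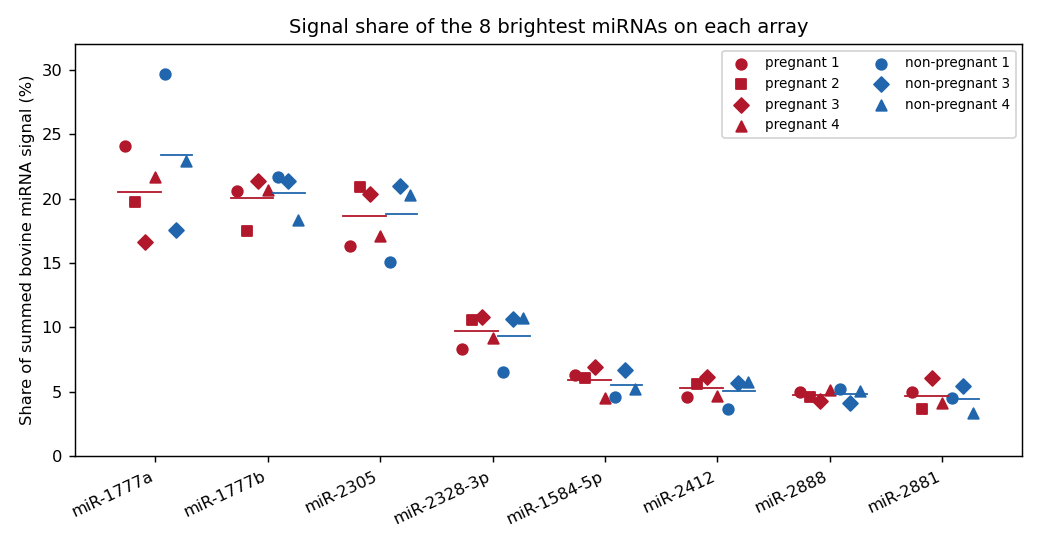
Share of the summed bovine miRNA signal (percent, vertical axis) for each of the 8 miRNAs on each of the 7 arrays. Points are arrays, with colour for the group and shape for the cow number, and short lines are group means. The first 3 miRNAs lie between 15.0% and 29.6%, miR-2328-3p between 6.52% and 10.8%, and the other 4 between 3.36% and 6.90%, with both groups overlapping for each.

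A gap separated the 8 from the rest. The least bright of them, miR-2881, had a mean share of 4.59% ± 0.959 (SD, n = 7) with a lowest value of 3.36%. The miRNA at rank 9, miR-1224, had a mean of 1.11% and a highest value of 1.52%. Ranks 10 and 11 were miR-3141 with 0.696% and miR-2348 with 0.693%. All 8 miRNAs were brightest on pregnant 3 and dimmest on non-pregnant 1, but by unequal factors. The signal of miR-1777a varied 4.69-fold and that of miR-2888 6.86-fold, whereas miR-2412 varied 14.1-fold and miR-2328-3p 13.9-fold. The coefficient of variation of the share had a median of 17.1% over the 8 (8.11% to 20.9%) and of 35.4% over the other 32 miRNAs detected on all arrays (5.72% to 98.2%). The 8 make up most of the total behind each share, and the other 32 were dimmer, so these medians do not compare like with like.

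The 16 probes were high in C, in a range that some other probes also reached. They were 10 to 13 bases long (median 11), against 9 to 23 (median 16) for the other 1601 bovine probes. Their GC content was 75% to 100% (median 86.7%), against a median of 50.0% for the others. The C content alone was 63.6% to 90.9% (median 80.9%), against a median of 26.7% and a maximum of 75% for the others. The ranges overlapped: the probes of miR-1224 (70% and 72.7% C) and miR-2374 (72.7% and 75% C) were also detected on all arrays. Over all 1617 probes length and GC content went opposite ways (r = -0.85, across probes, which share the same design rule), so short length and high GC cannot be told apart here. A run of 5 or more C (CCCCC on the strand printed, the other strand not searched) stood in 18 of the 1617 probes, or 1.11%. Of these, 13 belonged to 7 of the 8 miRNAs, all but miR-2412.

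High GC content and short length were also found in many probes that were not detected. Probes were not classed by C content, and the GC class below also holds probes rich in G. Of all 1601 other probes, 41 (2.56%) were detected on all 7 arrays, and the classes of probes given next had higher shares. Of the other 52 probes with at least 80% GC, which come from 29 miRNAs, 8 (15.4%) were detected on all 7 arrays and 35 on none. The brightest, a miR-2348 probe, had a mean signal of 255.6. The 29 miRNAs together held 1.99% to 2.78% of the signal, led by miR-2348 (0.693%), miR-2374 (0.481%) and miR-2316 (0.415%). Of the other 235 probes of 13 bases or fewer, 22 (9.36%) were detected on all arrays. Only 5 other probes met both limits and held a run of 4 or more C. Of these 5, 1 (20%) was detected on all arrays and 1 on none. A run of 4 or more C stood in 57 other probes, of which 7 (12.3%) were detected on all arrays and 32 on none. The brightest of these was a miR-671 probe with a mean signal of 357.2, and both miR-1835 probes, with means of 234.3 and 220.0, were also detected on all arrays. The median mean signal of these 57 probes was 2.87. The following 3, all above that median, are examples picked after their values were seen.
miR-2413: accgcagtCCCCC
miR-149-3p: gcacagCCCCC
miR-2885: cgCCCCggc
The miR-2413 probe had a mean signal of 38.2 and was detected on all 7 arrays. The miR-149-3p probe had a mean signal of 6.21 and was detected on 2 arrays, and the miR-2885 probe a mean of 39.1 and detection on 6. The dimmest value of any probe of the 8 miRNAs was 102.2, from the shorter miR-1584-5p probe on non-pregnant 1, where the median negative control spot was at 3.28. The brightest probe outside the 8 exceeded the dimmest probe of the 8 on 6 of the 7 arrays, with 123.1 against 102.2 on non-pregnant 1 and 414.9 against 154.4 on pregnant 4, so the probes of the 8 and of other miRNAs overlapped in signal. All 160 spots of the 8 miRNAs were well above background on every array, and none was saturated.

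**Figure D2:**
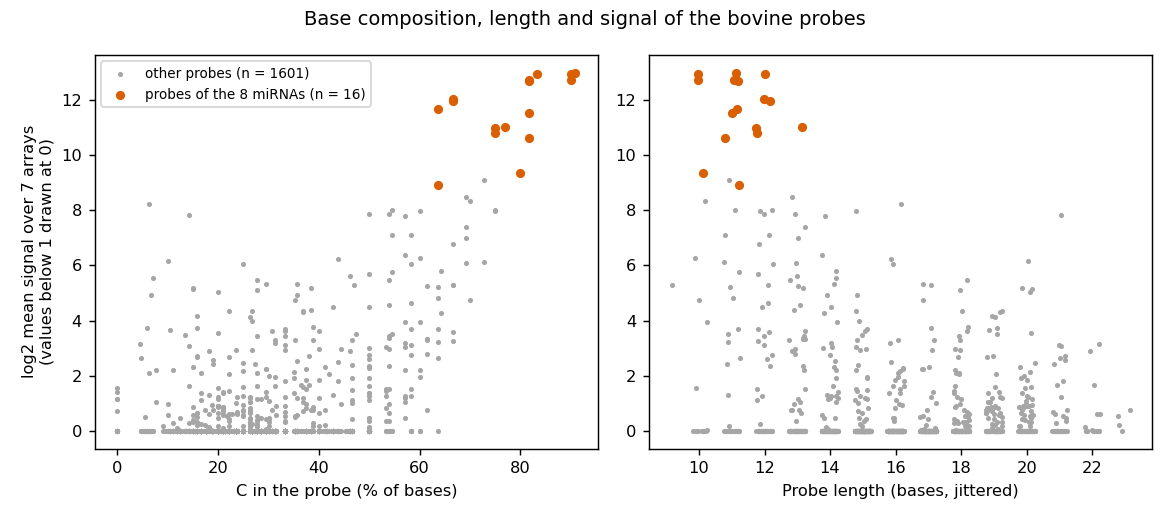
Mean signal over 7 arrays (log2, vertical axis, values below 1 drawn at 0) against the percent of C in the probe (left) and the probe length in bases with jitter (right), for the 16 probes of the 8 miRNAs and the 1601 other bovine probes. The 16 probes sit at 63.6% C or more and at 10 to 13 bases, and many other short probes lie at the bottom.

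The 2 probes of a miRNA agreed for 6 of the 8 and differed several-fold for the other 2. For miR-1777a the longer probe gave 0.85 to 0.89 times the signal of the shorter one over the 7 arrays, with the smallest spread of the 8 pairs. The ratio was 1.15 to 1.34 for miR-1777b, 1.13 to 1.25 for miR-2305, 1.14 to 1.45 for miR-2328-3p, 0.98 to 1.12 for miR-2412 and 0.93 to 1.35 for miR-2888. The longer miR-1584-5p probe, ending in 1 more C than tgCCCCCagcc, was 7.82, 8.57, 9.18 and 9.48 times as bright on pregnant 1 to 4, and 7.12, 8.03 and 7.91 times on non-pregnant 1, 3 and 4. For miR-2881 the pair is cacccgCCCC and the same with 1 more C. Its ratio was 3.82, 4.06, 4.60 and 5.05 on pregnant 1 to 4, and 3.81, 4.47 and 4.99 on non-pregnant 1, 3 and 4. The spread of the log2 ratio across arrays was small for every pair, with an SD of 0.02 to 0.18 (median 0.10), against 0.06 to 0.36 (median 0.11) for the 14 other miRNAs compared in the same way. A mean ratio beyond 2-fold occurred in 2 of the 8 and in 4 of those 14.

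**Figure D3:**
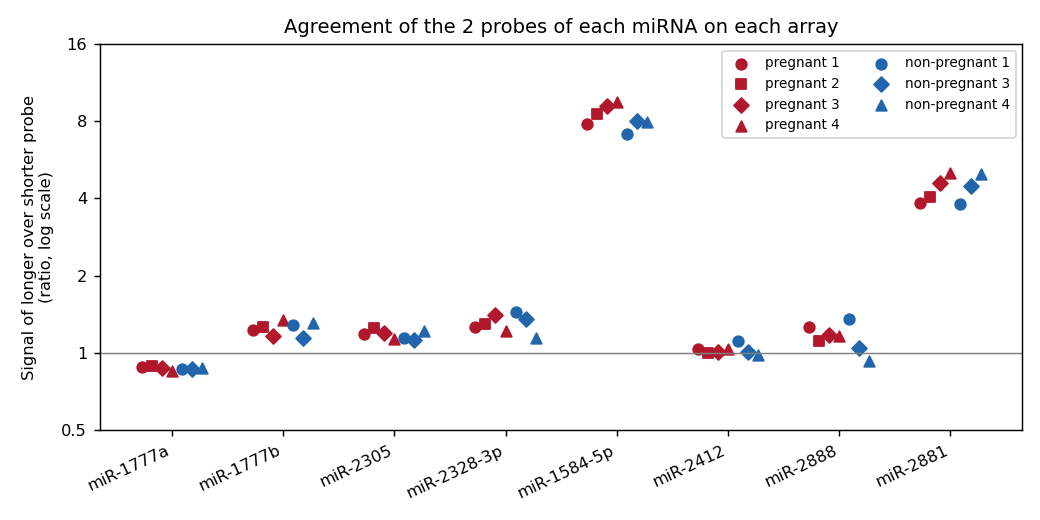
Ratio of the longer to the shorter probe's signal (log axis) for each of the 8 miRNAs on each of the 7 arrays, with colour for the group, shape for the cow number and a line at 1. miR-1584-5p lies between 7.12 and 9.48 and miR-2881 between 3.81 and 5.05, and the other 6 lie between 0.85 and 1.45.

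miR-1777a and miR-1777b, whose probes overlap, did not keep a fixed ratio. The signal of miR-1777a was 1.17, 1.13, 0.777 and 1.05 times that of miR-1777b on pregnant 1 to 4, and 1.37, 0.821 and 1.25 times on non-pregnant 1, 3 and 4. The ratio was below 1 on the 2 brightest arrays, pregnant 3 and non-pregnant 3, and above 1 on the other 5.

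The comparison of pregnant with non-pregnant cows was not part of how the 8 miRNAs were chosen, and none of them passed the test. limma called 0 of the 88 tested miRNAs at a Benjamini-Hochberg adjusted p of 0.05, a background of 0%, and 0 of the 8. At an unadjusted p of 0.05 limma had 1 of 88 (1.14%), and an exact permutation test of each miRNA had 0. The level tested was the log2 of the probe signal over a divisor, the 75th percentile of the array's 57 probes detected on all arrays. All p-values measure the spread between these 7 cows with 1 array each, so spread between cows and between arrays cannot be told apart. Slide row 1 held the pregnant and slide row 2 the non-pregnant cows, so that group and slide row cannot be told apart.

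The largest difference among the 8 was that of miR-1777a. Its log2 level was 3.55, 3.53, 2.94 and 3.22 on pregnant 1 to 4, and 3.97, 3.14 and 3.62 on non-pregnant 1, 3 and 4. The values overlapped, and the difference was -0.27 (SE 0.25, 95% interval -0.86 to 0.33, limma adjusted p = 0.763). miR-1777b had the smallest standard error of the 8 with this divisor, though not without scaling, where miR-1777a had it (0.63 against 0.80). The log2 level of miR-1777b was 3.32, 3.35, 3.30 and 3.13 on pregnant 1 to 4, and 3.51, 3.43 and 3.29 on non-pregnant 1, 3 and 4. Its difference was -0.13 (SE 0.10, 95% interval -0.38 to 0.11, limma adjusted p = 0.743). The other 6 had differences between -0.11 (miR-2888) and 0.0045 (miR-2412), with standard errors of 0.16 to 0.25 and limma adjusted p-values of 0.854 to 1. For all 8 the groups overlapped, as they did for all but 1 (1.14%) of the 88 tested. Differences inside the intervals, which reached up to 0.60 on either side of the estimate, could not be resolved with 4 and 3 cows.

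The divisor of these levels was not independent of the 8 miRNAs. Their 16 probes were among the 57, and the 75th percentile is the 15th-brightest probe. That probe was the shorter miR-2881 probe on pregnant 1, pregnant 3, non-pregnant 1 and non-pregnant 3. It was a miR-1224 probe on pregnant 2 and non-pregnant 4, and a miR-223 probe on pregnant 4. Where miR-2881 set the divisor, its own level held only the ratio of its 2 probes. Its difference and correlations with this divisor therefore do not measure its signal on those arrays. With the other 41 probes as divisor, its difference was -0.090 (SE 0.26). With the divisor taken over the other 41 probes, the difference of miR-1777a was -0.34 (SE 0.19) and that of miR-1777b -0.21 (SE 0.14), with limma adjusted p = 0.727 for both. The direction depended on the scaling. The estimate was negative for 7 of the 8 (25 of 88 tested, 28.4%) in the first scaling, for 8 of the 8 (30 of 88, 34.1%) with the 41 probes, and positive for 8 of the 8 (76 of 88, 86.4%) with no scaling. With quantile scaling, and likewise with normexp, 5 of the 8 were negative and 3 positive. The software's signal per miRNA gave 8 of the 8 negative and larger estimates, with -0.59 (SE 0.41) for miR-1777a, -0.45 (SE 0.39) for miR-1777b and a median of -0.38, beside 0.24 over all 88. The median difference of the 8 was -0.08, -0.16 and 0.22 in the first 3 of these settings, beside 0.18, 0.14 and 0.20 over all 88. Without scaling the standard errors were 0.63 to 0.99, and no difference of the 8 passed the threshold in any of the scalings.

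**Figure D4:**
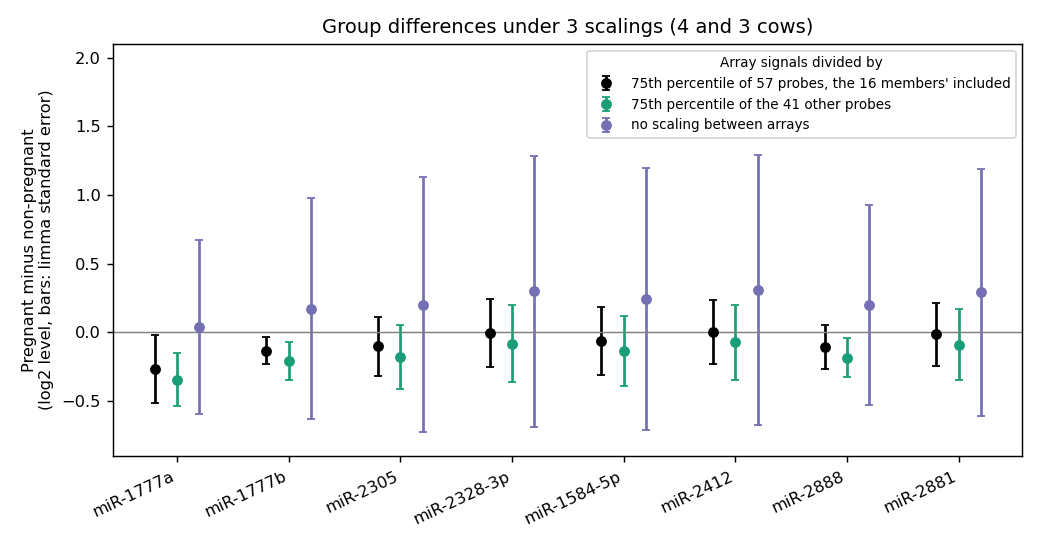
Difference in log2 level, pregnant (n = 4) minus non-pregnant (n = 3), for the 8 miRNAs under 3 scalings; points are limma estimates and bars their standard errors. Estimates lie between -0.34 and 0.0045 in both scaled versions and between 0.039 and 0.31 without scaling, where the bars are widest.

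Within the 8 miRNAs, miR-2328-3p and miR-2412 varied alike between cows. The log2 level of miR-2328-3p was 2.01, 2.62, 2.30 and 1.98 on pregnant 1 to 4, and 1.76, 2.41 and 2.52 on non-pregnant 1, 3 and 4. That of miR-2412 was 1.17, 1.72, 1.51 and 1.09 on pregnant 1 to 4, and 0.95, 1.51 and 1.64 on non-pregnant 1, 3 and 4. Both were highest on pregnant 2 and lowest on non-pregnant 1. Their Pearson r was 0.992 over 7 arrays with Spearman rho 1 (exact permutation p = 0.000198 for r, adjusted over 780 pairs 0.0221), and that p is the smallest that 7 arrays can give. It was 0.985 without the arrays farthest from the median, non-pregnant 1 and pregnant 4, and 0.993 with the divisor of 41 probes (adjusted exact permutation p = 0.0442), where again 1 of the 28 pairs passed beside 7 of 780 (0.897%). Their probes share at most 5 bases in a row. This was the only one of the 28 pairs among the 8 miRNAs past the threshold, beside 13 of all 780 pairs (1.67%) of the 40 miRNAs detected on all arrays. With any 1 array left out no pair passed, since the smallest p that 6 arrays allow is 0.00139, while r stayed between 0.987 and 0.998.

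Other pairs were close but did not pass. miR-2305, at 2.99, 3.61, 3.23 and 2.88 on pregnant 1 to 4 and 2.99, 3.40 and 3.44 on non-pregnant 1, 3 and 4, had r = 0.941 with miR-2328-3p (rho 0.964, exact permutation p = 0.00377, adjusted 0.0815). With miR-2412 it had r = 0.938 (rho 0.964, exact permutation p = 0.00575, adjusted 0.102). miR-1777a had r = 0.924 with miR-2888 (rho 0.964, exact permutation p = 0.00278, adjusted 0.0802). Without the arrays farthest from the median, non-pregnant 1 and pregnant 3, that r was 0.928. With the divisor of 41 probes it was 0.824, and 0.126 without the farthest arrays there, non-pregnant 1 and non-pregnant 4, so how far it rested on single arrays depended on the divisor. miR-1777a and miR-1777b had r = 0.476 (rho 0.250, exact permutation p = 0.277, adjusted 0.552). Their probes share up to 10 bases in a row, and those of miR-2305 and miR-2328-3p up to 9. miR-2881 shares 9 bases with miR-1777b (r = 0.672) and with miR-1777a (r = -0.178). Whether shared bases go with correlation was not tested. The lowest r of the 28 pairs was -0.39, for miR-2881 with miR-2888, and the median was 0.10, beside 0.52 for pairs of other miRNAs. That order turned with the divisor of 41 probes, where the medians were 0.33 and 0.25, and with the software's signal per miRNA, where they were 0.62 and 0.32. Without scaling all 28 pairs had r of 0.934 or more and passed, but so did 330 of all 780 pairs (42.3%), and unscaled levels still hold the 8.37-fold spread in array brightness. Groups of 4 and 3 cows are too small for a correlation within each.

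**Figure D5:**
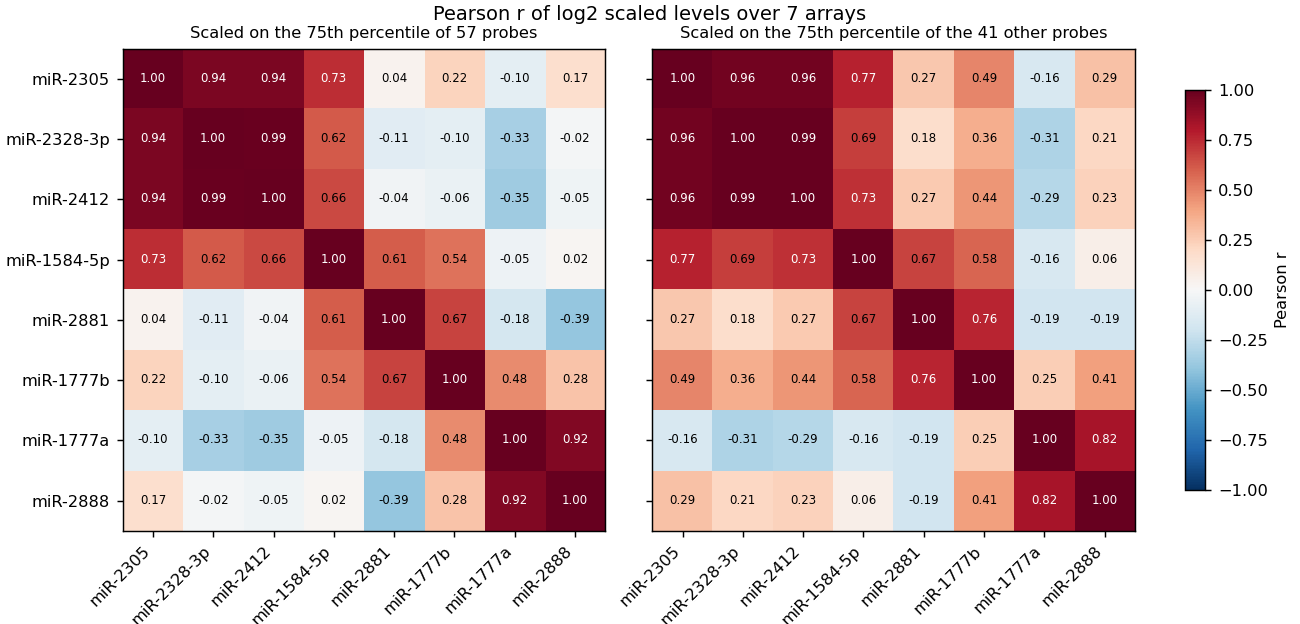
Pearson r of log2 levels over 7 arrays for each pair of the 8 miRNAs (red positive, blue negative), with the divisor of 57 probes (left) and of the 41 other probes (right). miR-2305, miR-2328-3p and miR-2412 form a block with r of 0.938 or more on the left, and miR-1777a with miR-2888 goes from 0.92 to 0.82.

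By Pearson r with the divisor of 57 probes, the miRNAs outside the set whose level was most like the mean level of the 8 were miR-1835, miR-2902 and miR-1343-5p, out of 32 detected on all arrays. Their r over the 7 arrays was 0.850, 0.819 and 0.758, given as a description because the most similar of many were picked. Without the 2 arrays farthest from the median it was 0.617, 0.374 and -0.470, so each likeness was weaker without those arrays and that of miR-1343-5p changed sign. The place of miR-1343-5p depended on the measure: with the divisor of 41 probes its r was 0.562, below miR-6528 with 0.696, and its Spearman rho of 0.357 was below that of miR-1224, 0.714.

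miRNAs that mark possible sources of plasma RNA made up a small share of signal. Of 26 listed markers on the array (erythrocyte, leukocyte, platelet, liver and widely expressed plasma miRNAs), 20 were detected on at least 1 array and 8 on all 7. miR-144 of erythrocytes, miR-142-3p and miR-155 of leukocytes, miR-126-5p and miR-191 of platelets, and miR-21-5p were detected on none. The markers' summed share was 1.19%, 2.31%, 0.684% and 3.28% on pregnant 1 to 4, and 1.47%, 0.539% and 0.670% on non-pregnant 1, 3 and 4. It was highest on pregnant 4 and pregnant 2, the arrays where the joint share of the 8 miRNAs was lowest. Both shares are parts of the same total, so an opposite course is partly built in. The largest part of the markers' share on pregnant 4 was leukocyte markers with 1.70%, and most of it was miR-223, a myeloid miRNA. The erythrocyte markers held 0.231% to 0.729% on pregnant and 0.166% to 0.504% on non-pregnant arrays. The part of these cells in the joint share was not tested, and in plasma a change in RNA released per cell cannot be told apart from one in the number of cells that release it.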

How the data were processed

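Plasma miRNAs of 7 cows (4 pregnant, 3 non-pregnant) were measured on 1-colour Agilent arrays. The deposited intensity of each spot came, per the file headers, from Feature Extraction 11.0.1.1, background-subtracted within each array and not scaled between arrays, with 14880 bovine spots and 715 control spots. The authors' deposited log2 values equalled log2 of the intensity per miRNA plus 3.32 for the 8 miRNAs on every array; they are unscaled, and no source used here gives the origin of the constant (column medians 7.25 to 7.90).

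Shares used the software's signal per miRNA. For levels, control and outlier-flagged spots (558 to 1149 per array) were left out, spots of a probe averaged, divided by the 75th percentile of 57 probes detected on all arrays (over 50% of spots well above background), floored at 0.0122, put on the log2 scale and averaged over probes. miRNAs detected on at least 3 arrays (88) were tested by a two-sided limma fit (version 3.58.1, R 4.3.3, eBayes) with Benjamini-Hochberg adjustment. Correlations used two-sided exact permutation over all 5040 pairings (Python 3.11.15, scipy 1.17.1). Both procedures were checked on simulated data.

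The 8 miRNAs and the marker lists were chosen with earlier results of these data known. Named besides the 8 were ranks 9 to 11, the 3 most similar miRNAs, the 3 brightest others with a probe of at least 80% GC, and the listed markers; miRNAs at the divisor, other probes with runs of C, and miR-6528 were named after their values were seen. Mature miRNA sequences were not used here, so no seeds are compared. Settings varied were scaling, background correction, the summary of spots and probes, floor, filter, variance model, test, correlation measure, use of the deposited log2 values, a block for cow number, and leaving out each array. The arrays came from 1 slide, and their number limits the precision.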

Additional observations from a re-analysis of the deposited data

How the results depend on the processing

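limma, or in its own setting the exact permutation test, called 0 of the tested miRNAs in the 21 settings tried. There were 0 to 11 at an unadjusted p of 0.05, and no difference of the 8 miRNAs passed. The 168 differences of the 8 under other settings include ones that could not change sign. Another floor, detection filter, variance model or test did not move the estimates of the 8. The replicate block gave the 8 the same estimates as leaving out the pregnant cow without a same-numbered non-pregnant cow. The total of 168 therefore makes sign changes look rarer than they were where the estimates could move. Of the 168 differences, 38 changed sign, and the cause was not tested. With no scaling these were miR-2881 0.29, miR-2888 0.20, miR-1584-5p 0.25, miR-2328-3p 0.30, miR-2305 0.20, miR-1777b 0.17 and miR-1777a 0.039, and with the deposited log2 values, in this order, 0.29, 0.20, 0.32, 0.30, 0.20, 0.17 and 0.038. With quantile scaling they were miR-1777b 0.054, miR-2328-3p 0.025, miR-2412 -0.041 and miR-2881 0.11, and with normexp miR-2328-3p 0.036 and miR-2881 0.020, where the median over all 88 was -0.35. The median over spots gave miR-2328-3p 0.014. miR-2412 was -0.073 with the divisor of 41 probes and -0.34 with the software's signal per miRNA, under which the other 7 lay between -0.59 and -0.31. Leaving out 1 array gave -0.48 to -0.071 for miR-1777a, -0.19 to -0.082 for miR-1777b, -0.25 to -0.0030 for miR-2305, -0.24 to 0.14 for miR-2328-3p, -0.17 to 0.14 for miR-1584-5p, -0.20 to 0.14 for miR-2412, -0.24 to -0.031 for miR-2888 and -0.21 to 0.12 for miR-2881.

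Deviations of same-numbered cows correlated at 0.0935, 0.646 and -0.201 for numbers 1, 3 and 4. Cows of unlike number in the 2 groups correlated at -0.623 to 0.426. Whether cow numbers pair the arrays was not tested. The replicate block, with cows 1, 3 and 4 of both groups, called 0 miRNAs (smallest adjusted p 0.820), gave miR-2412 -0.11 and miR-2881 0.00045, and a joint share difference of -1.72. That difference was 5.09 with normexp, -2.51 to -1.37 in the other settings and -3.05 to -1.24 with 1 array left out. Correlated pairs among the 8 numbered 28 with no scaling, 3 when levels came from the software's signal and 0 with any 1 array left out, against 1. The planned 75th percentile over all bovine probes was not run, because it is -0.291 on non-pregnant 1 and has no log.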

Other observations

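The ratio of the longer to the shorter miR-2881 probe followed the place of the array on the slide, a pattern seen after its values were known and not tested. In slide column 1 it was 3.82 (row 1) and 3.81 (row 2), in column 2 it was 4.06 (row 1 alone), in column 3 it was 4.60 and 4.47, and in column 4 it was 5.05 and 4.99. The values of both rows in a column were closer to each other than to those of the next column, although the arrays of a column held a pregnant and a non-pregnant cow and differed in brightness. For miR-1584-5p the ratio in row 1 was 7.82, 8.57, 9.18 and 9.48 in columns 1 to 4, and in row 2 it was 7.12, 8.03 and 7.91 in columns 1, 3 and 4. The order was therefore not kept in row 2 for miR-1584-5p, and its rows differed by more within column 4 than neighbouring columns did. The other 6 miRNAs also showed no rise with the column in both rows, as with miR-1777a at 0.88, 0.89, 0.87 and 0.85 in row 1 and 0.87, 0.86 and 0.87 in row 2. The ratio of miR-1777b, at 1.23, 1.26, 1.16 and 1.34 in row 1 and 1.28, 1.15 and 1.30 in row 2, did not rise either. In both rows, however, it was lowest in column 3 and highest in column 4. Slide column and cow number coincide and cannot be told apart.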
